A study of Arabidopsis thaliana with 4 samples.

Results

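Described here are 65 Arabidopsis thaliana genes whose signal was higher, and similar, on both arrays of the lwd1lwd2 double mutant than on either wild-type array. They are read by 66 of the 13513 probe sets that the array's annotation ties to 1 gene. Membership was decided by the values themselves, on the scale log2(signal + 16). The lower mutant value had to exceed the higher wild-type value by at least 1, and the mutant values had to lie less than 0.5 apart. COR27, AT4G33980, AT1G07050, COR15B, LCR68 and LCR69 were left out by name, and 5 of those 6 had met both conditions (LCR68 had not). Because the members were picked on this contrast, their values are given as a description and carry no test.

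Each genotype had 2 arrays, called biological replicates by the submitters. The groups were wild type and the double mutant of LWD1 and LWD2, and the labels name no ecotype, alleles or treatment. Plants of both genotypes were 31 days old, had grown in cycles of 12 h light and 12 h dark, and gave their above-ground tissue 5 to 9 h after lights-on. Whether 1 array stands for 1 plant or a pool is not stated in the sources used here. LWD1 and LWD2 have no probe set tied to 1 gene in the table used, so the genotype was not checked against them.

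LWD1 and LWD2, a pair of similar WD-repeat proteins, are components of the circadian clock, the oscillator that sets many transcripts to a time of day. In leaves, clock outputs include starch turnover, cell wall growth, cold and water-stress protection and the timing of flowering. All samples fell in 1 window of the day, so a transcript whose daily peak had moved cannot be told apart from one whose overall level had changed. In whole shoots, more cells of a type and more RNA per cell cannot be told apart either.

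The median signal over all probe sets was 162 for each wild-type array, 181 for mutant replicate 1 and 176 for mutant replicate 2. RCA, the Rubisco activase of green tissue, stood at signals of 27927 and 29534 in the wild type and 20801 and 25786 in the mutant, high on every array. It was the only one of 15 green shoot markers with a named probe set. PYK10, a beta-glucosidase best known from roots, was measured at 934 to 1810.2 over the 4 arrays, and the root hair expansins EXPA7 and EXPA18 did not exceed 82.9. A9 (AT5G07230), a tapetum gene of anthers, had signals of 156 and 33.1 in the wild type and 300.0 and 40.9 in the mutant. It varied between replicates of both genotypes, and its part in any result was not tested.

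The rule picked 0.525% of the probe sets with 1 gene (71 of 13513, the left-out genes included). Mirrored for genes lower in the mutant, with the mutant arrays again within 0.5, it picked 60 (0.444%). Among probe sets without an annotated gene, 76 of 8730 (0.871%) met it, and so did 3 of 503 (0.596%) tied to several genes. Another 44 probe sets with 1 gene passed the gap of 1 but had mutant arrays 0.5 or more apart. Close to the edge, AT3G47570, AT5G25210 and AT1G32090 entered with gaps of 1.01, 1.02 and 1.02, while AT3G23930, AT5G66500 and AT5G08350 missed with 0.998, 0.998 and 0.995. LpxA had the widest distance between mutant arrays among the members (0.491), and AT3G16670 was left outside at 0.503 in spite of a gap of 1.72.

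**Figure D1:**
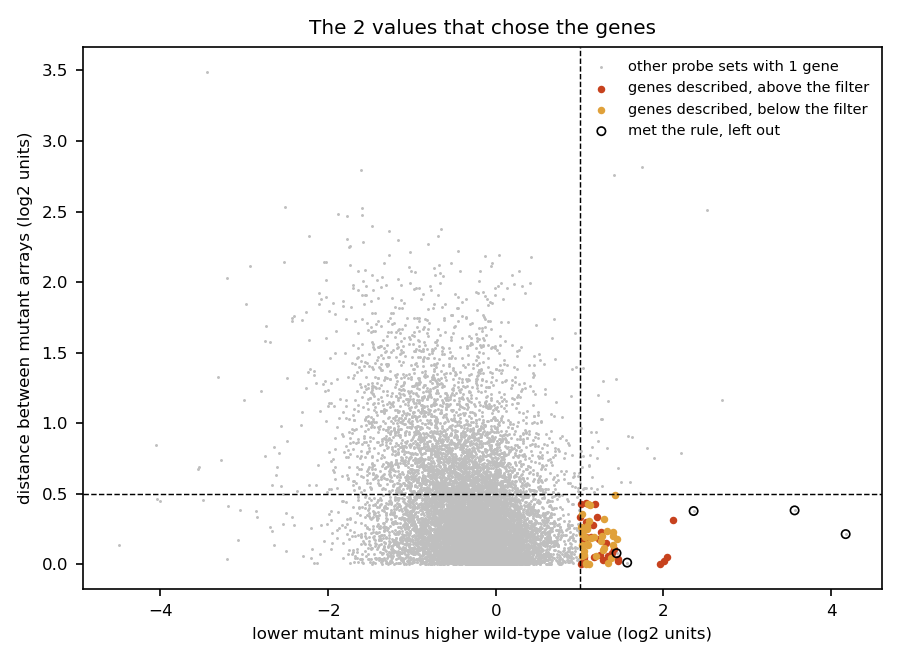
Each point is a probe set with 1 gene. The horizontal axis gives the lower mutant minus the higher wild-type value and the vertical axis the distance between the mutant arrays, both in log2 units; dashed lines mark the thresholds of 1 and 0.5. The genes described fill the lower right corner, most of them close to the gap of 1, and 3 of the left-out genes lie farther right than any of them.

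The members fell into 2 intensity classes. An intensity filter removed the dimmest 40% of probe sets by their mean, a cutoff near a signal of 91.5, and 30 member probe sets (29 genes) lay above it. Their mean signals were 52.7 to 2299 in the wild type and 164 to 5769 in the mutant, and 28 of the 30 exceeded the median of both mutant arrays. The mean used by the filter takes in the mutant arrays. AT3G47570 and AT5G25210, with wild-type means of 58.4 and 52.7, lay above the cutoff only through them. The other 36 probe sets lay below the filter. Their mean wild-type signals ran from 1.82 to 45.5, with a median of 6.27, and their mean mutant signals from 25.3 to 198, with a median of 42.1. On both wild-type arrays, 27 of the 36 were under the offset of 16 added before taking logs, and 35 were under the median of both mutant arrays. The rule selected 0.586% of probe sets below the filter (36 of 6144) and 0.475% of those above it (35 of 7369). In the mirrored direction the shares were 0.342% below the filter and 0.529% above it.

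Above the filter, the mutant exceeded wild type by 2.09-fold to 5.29-fold, with a median of 2.66-fold. Folds here are differences of means on the log2(signal + 16) scale, turned back to ratios. For dim genes they are smaller than the ratios of the signals themselves. Which is nearer the true ratio cannot be told from the signals alone, and no detection calls were used. Functions are given from general knowledge of these loci, since the annotation holds symbols only. A role could be given with confidence for 41 of the 65 genes, in 7 groups, and the other 24 were kept apart.

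**Figure D2:**
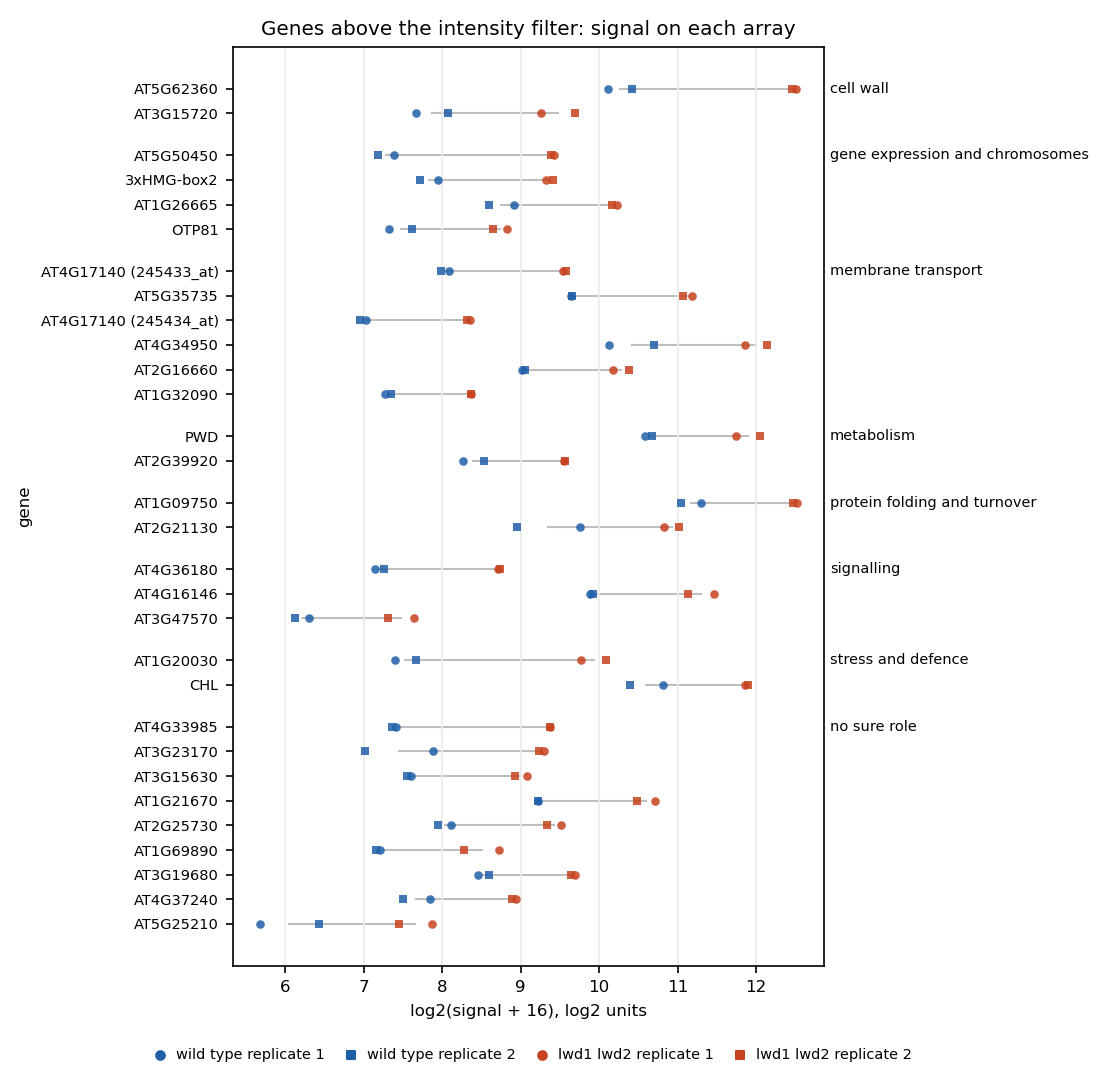
Values of the 30 member probe sets above the intensity filter, in log2(signal + 16), by functional group. Circles are replicate 1 and squares replicate 2, blue for wild type and red for lwd1lwd2, and a grey line joins the means. In every row both mutant points lie at least 1 unit to the right of both wild-type points.

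The 2 largest gaps belonged to a defence gene and a cell wall gene. AT1G20030, which encodes a thaumatin-like protein of the pathogenesis-related class, had signals of 153 and 186 in the wild type and 859.7 and 1076 in the mutant. At 5.29-fold it had the largest fold and the largest gap (2.11) among the members. AT5G62360, of the invertase and pectin methylesterase inhibitor family, was abundant in both genotypes, at 1096 and 1354 in the wild type and 5831 and 5613 in the mutant, 4.65-fold higher. Such inhibitors restrain the enzymes that de-esterify pectin in the wall. AT3G15720, of the pectin lyase-like family that includes the polygalacturonases, stood at 187 and 254 in the wild type and 595 and 808 in the mutant, 3.03-fold higher. The third wall gene, AT4G02300 (pectin methylesterase 39), was dim, at 2.17 and 1.46 against 30.2 and 22.8.

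Among the other stress and defence genes, 1 of 6 was bright. CHL, the chloroplastic lipocalin that protects thylakoid lipids from peroxidation, had a mean signal of 1553 in the wild type and 3744 in the mutant, 2.42-fold higher. The other 5 lay below the filter. The glutaredoxin family gene AT5G03870 stood at 13.6 and 18.7 in the wild type and 78.9 and 91.6 in the mutant. AT2G03740, with a late embryogenesis abundant domain, was at 35.8 and 17.3 against 134 and 121, and its wild-type arrays differed more than its mutant arrays. OSM34, an osmotin-like protein and the other thaumatin-family member, was at 2.3 and 2.87 against 33 and 29.7. AtLEA4-1, of the protective proteins made in drying seeds, was at 4.39 and 3.15 against 32.1 and 27.8. Both were listed near 0 in the wild type and stayed among the dim probe sets in the mutant. AT5G45220, of the TIR-NBS-LRR resistance class, had mean signals of 6.3 and 39.8.

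The membrane transport group had 6 of its 7 probe sets above the filter. AT4G34950 and AT2G16660 both belong to the nodulin-like branch of the major facilitator superfamily. The first stood at 1106 and 1645 in the wild type against 3696 and 4495 in the mutant, 3-fold higher, and its wild-type arrays lay 0.57 apart on the log2 scale. The second, with mean signals of 509 and 1230.1, was 2.37-fold higher. AT5G35735, with cytochrome b561 and DOMON domains that carry electrons across membranes, stood at 783 and 792 in the wild type and 2313 and 2138 in the mutant. Its replicates were close in both genotypes, and the mutant was 2.79-fold higher.

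AT4G17140 encodes a large protein related to VPS13, a lipid carrier between membranes known from yeast, and was read by 3 probe sets. The brightest gave 255 and 237 in the wild type and 731 and 749 in the mutant, 2.88-fold. A second gave 115 and 108 against 310.3 and 303, 2.53-fold, so both bright probe sets met the rule. The third, at 3.42 and 39.8 against 38.4 and 84.7, did not, as its groups overlapped. AT1G32090, related to the dehydration-induced membrane protein ERD4, had the smallest fold among the members, 2.09, with mean signals of 143 and 316. AT5G28470, of the nitrate and peptide transporter family, was dim, at 4.47 and 4.53 against 37.3 and 38.9.

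Of the 10 genes for gene expression and chromosomes, 4 were bright. AT5G50450, which encodes a zinc finger protein of the MYND type, stood at 152 and 129 in the wild type and 669 and 656 in the mutant, 4.35-fold higher with close replicates. 3xHMG-box2 binds the chromosomes of dividing cells and stood at 231 and 194 against 627 and 665, 2.9-fold higher. AT1G26665 belongs to the family of subunit 10 of Mediator, the complex that links transcription factors to RNA polymerase, and stood at 466 and 371 against 1181 and 1128. OTP81, a pentatricopeptide repeat protein that directs RNA editing in chloroplasts, had mean signals of 162 and 413.

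The 6 dim members of that group had mean signals of 4.27 to 26.1 in the wild type and 29.1 to 78.5 in the mutant. REM22, a B3-domain protein of a family found in reproductive meristems, stood at 8.59 and 8.31 against 44.2 and 49.3. AT1G71200, which encodes a transcription factor of the bHLH class, stood at 4.92 and 4.38 against 29.2 and 29.1. The others were the pentatricopeptide repeat genes AT1G13040 and AT3G09060, the Ran-binding type zinc finger gene AT1G55040 and the kinesin family gene AT5G23910. These 4 had mean signals of 4.27 to 26.1 in the wild type and 31.7 to 78.5 in the mutant, and their log2 differences of 1.17 to 1.35 fell to between 0.49 and 0.66 with an offset of 64.

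PWD was the brightest of the 6 genes of metabolism. It encodes phosphoglucan, water dikinase, which phosphorylates starch so that it can be broken down at night. Its signals were 1524 and 1619 in the wild type and 3425 and 4229 in the mutant, 2.41-fold higher. AT2G39920, of the HAD family of acid phosphatases, had mean signals of 322 and 739.

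The other 4 genes of metabolism were dim. LpxA, an acyltransferase that in bacteria starts the synthesis of lipid A, stood at 12.5 and 9 against 60 and 90.9. SDP1-LIKE, related to a lipase that mobilises seed oil, stood at 6.62 and 4.79 against 41.3 and 41.6. The glucosyltransferase gene UGT85A3 was at 16.2 and 36.7 against 93.6 and 101, with the wider spread in the wild type. AT3G04050, of the pyruvate kinase family, was at 3.22 and 3.16 against 23.9 and 31.3.

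For signalling, 3 of 6 genes were above the filter. AT4G36180, a receptor-like kinase with leucine-rich repeats, stood at 125 and 137 in the wild type and 404 and 412 in the mutant, 2.89-fold higher. AT4G16146, related to the cAMP-regulated phosphoprotein 19 of animals, stood at 928 and 953 against 2800.2 and 2219. A second leucine-rich repeat kinase, AT3G47570, was at 62.8 and 53.9 against 184 and 143, and its gap was the smallest of all members. Below the filter, AT1G52770, of the NPH3 family of phototropic signalling, was at 59.7 and 24.8 against 142 and 166. IQD16, a calmodulin-binding protein, was at 4.58 and 8.29 against 35.7 and 45.7. The protein kinase gene AT1G01450 was at 2.06 and 4.88 against 38.6 and 26.7.

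Protein folding and turnover was represented by 3 genes. AT1G09750, of the aspartyl protease family, had the highest signals of all members, 2506 and 2091 in the wild type and 5872 and 5667 in the mutant, 2.51-fold higher. AT2G21130, a cyclophilin that isomerises prolines in folding proteins, stood at 850.2 and 478 against 1805 and 2066. Its wild-type arrays lay 0.81 apart on the log2 scale and its mutant arrays closer together. The F-box gene AT4G19940 was dim, at 5.13 and 1.02 against 30.3 and 36.5.

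Of the 24 genes with no role given here, 9 were above the filter. AT4G33985 had replicates that almost coincided, with signals of 155 and 148 in the wild type and 647 and 648 in the mutant, 3.97-fold higher. In the TAIR10.1 gene table it is the next protein-coding gene after AT4G33980 (COR28), 1 of the left-out genes, whose signals were 14.9 and 55 in the wild type and 458 and 349 in the mutant. The spans of this pair do not overlap. Among all genes that met the rule, no other pair had 2 or fewer protein-coding genes between them.

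The other 8 bright genes of this set were AT3G23170, AT3G15630, AT1G21670, AT2G25730, AT1G69890, AT3G19680, AT4G37240 and AT5G25210. They were 2.2-fold to 3.51-fold higher, with mean wild-type signals of 52.7 to 582 and mean mutant signals of 188 to 1533.

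The 15 dim ones were AT3G12440, AT3G58770, AT5G42840, AT1G35210, AT3G06710, AT3G25720, AT3G15550, AT2G28580, AT3G01730, AT1G03320, AT1G50650, AT1G76910, AT3G06890 and the annotated pseudogenes AT1G37057 and AT4G07750. Their mean signals were 1.91 to 45.5 in the wild type and 25.3 to 198 in the mutant. AT3G06890, singled out after its values were seen, had wild-type signals of 83.7 and 7.32, a distance of 2.1 on the log2 scale that was the widest of all members. AT3G15550 had a second probe set, at 17 and 2.9 against 58.8 and 7.35, which did not meet the rule and whose groups overlapped.

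**Figure D3:**
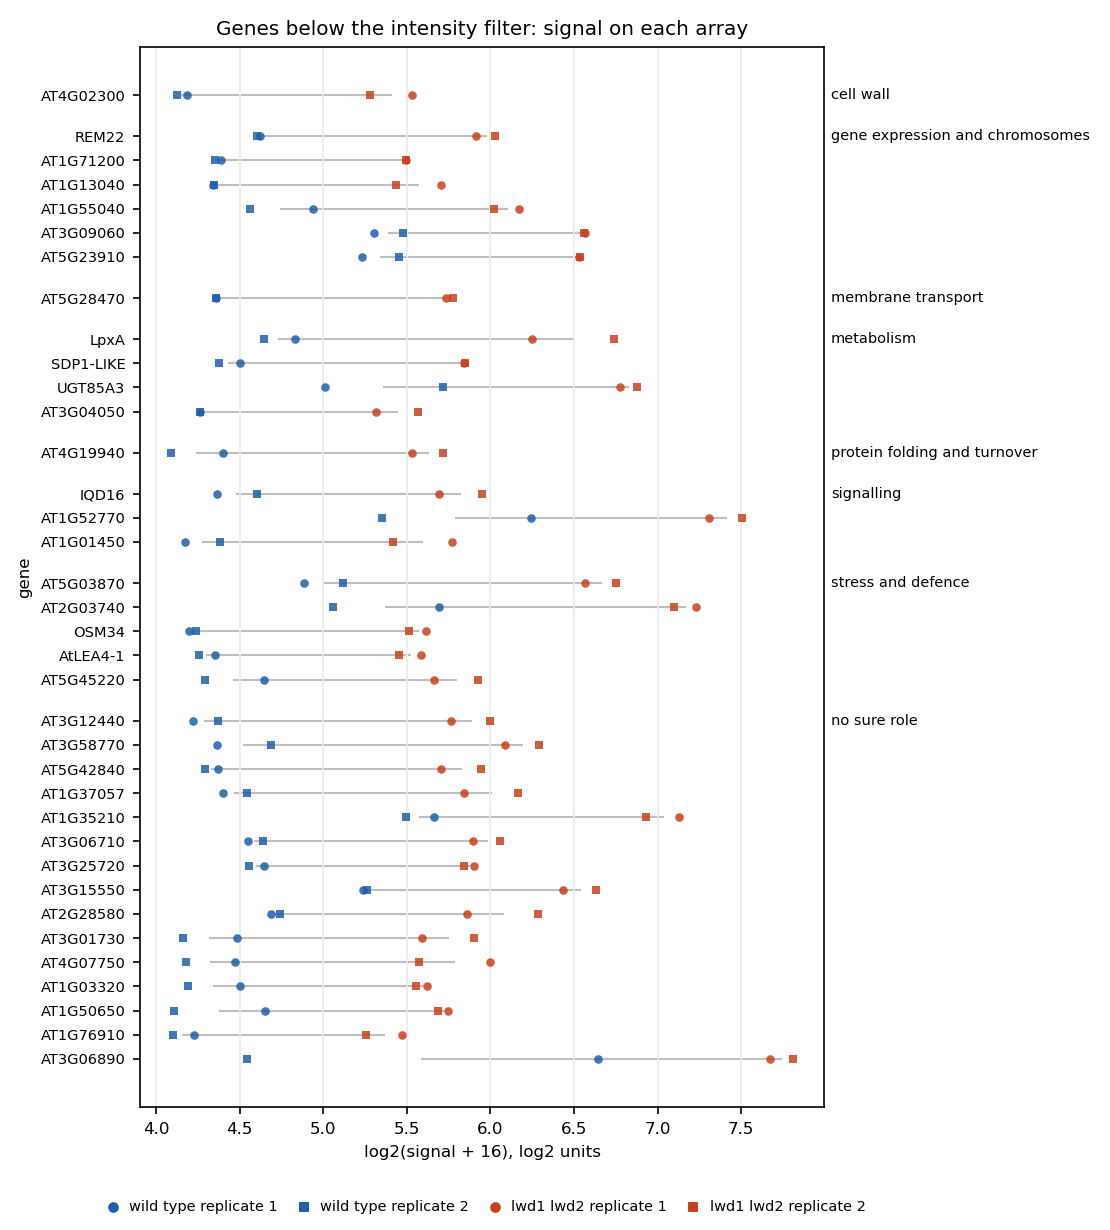
Values of the 36 member probe sets below the intensity filter, drawn as in the plot of the brighter genes, in log2(signal + 16). A signal of 0 would stand at 4. Most wild-type points lie between 4 and 5, where signals are under the offset of 16, and AT3G06890 shows the widest distance between wild-type arrays (2.1).

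The rule set no limit on the distance between the wild-type arrays. It was under 0.5 for 57 of the 66 member probe sets, with a median of 0.19 above the filter and 0.17 below it, on the log2 scale. Over all probe sets with 1 gene the medians were 0.23 and 0.40. The distance was under 0.5 for 26 of 30 members above the filter and 31 of 36 below it. Over all probe sets with 1 gene the shares were 85.6% and 58.2%. Of the 36 dim members, 27 had both wild-type signals under the offset of 16, where this scale changes little with the signal. Short distances there say little of reproducibility. The gap itself is taken from the higher wild-type value, so a wide wild-type distance makes it harder to meet. Mutant replicate 1 was above replicate 2 for 33 of the 66.

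The size of the difference in dim genes depended on the offset. With 64 in place of 16, the median difference of the 36 dim probe sets went from 1.36 to 0.61, and 3 of them kept a difference of at least 1. For the 30 bright probe sets it went from 1.41 to 1.29, and 28 kept at least 1. With that offset 23 probe sets met the rule, 22 of them shared with the 66. Centring each array on its median, which moves every difference by -0.13, left 34, of which 32 were shared.

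**Figure D4:**
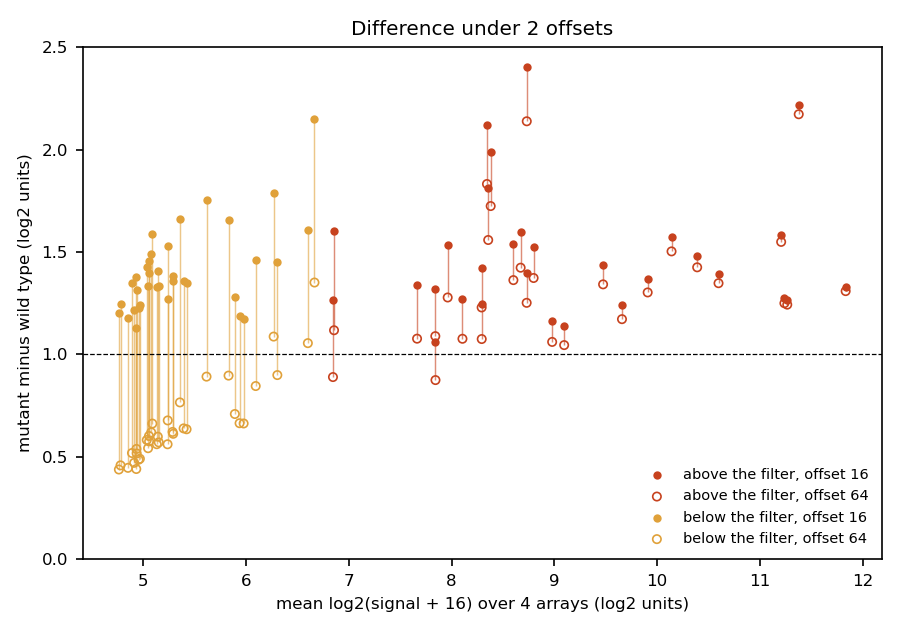
Mutant minus wild-type difference in log2 units for the 66 member probe sets, against their mean log2(signal + 16) over the 4 arrays. Filled points use an offset of 16 and open points one of 64, joined by a line. The lines are long on the left, among genes below the filter (orange), whose median falls from 1.36 to 0.61, and short on the right among those above it (red).

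Genes of the same pathways that were not members were read from the limma fit over 13648 probe sets, of which 2.74% were called higher and 2.85% lower in the mutant. Of the 33 genes listed for cell division 8 had a named probe set, so the list covers little of the pathway. Of the 6 tested beside 3xHMG-box2, every one had a positive difference, as had 55.1% of all tested probe sets. Their median was 0.66 against 0.05 over all tested probe sets, and 1 passed. That gene was TOPII, a DNA topoisomerase, with signals of 51.9 and 62.6 in the wild type and 223 and 148 in the mutant. Its adjusted p was 0.0192 (limma), and 0.126 without the filter (limma). Both its wild-type signals lay under the filter cutoff near 91.5, so TOPII entered the test only through its mutant signals. The closest relative of 3xHMG-box2, 3xHMG-box1, stood at 96.8 and 63 against 128 and 89.6 and did not pass (log2 difference 0.39 ± 0.32 (SE), adjusted p = 0.543, limma). Like TOPII, 3xHMG-box1 and AUR2 had mean wild-type signals under the cutoff (79.9 and 83) and entered the test through their mutant signals. AUR3, left out by the filter, had a difference of 0.16. The filter takes in the mutant arrays, so the all-positive count and the median of 0.66 depend in part on it. DPE1, which like PWD serves starch breakdown and was the only tested gene of that list, had a difference of 0.26 ± 0.19 (SE, adjusted p = 0.479, limma).

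Of 42 clock genes listed 8 had a named probe set, and of 17 cold and dehydration genes 4. Both lists thus cover little of their pathways. GI passed as 1 of the 8 clock genes (adjusted p = 0.00595, limma). Its mutant arrays of 1689 and 1551 lay above wild-type ones of 683 and 797. Of the 4 cold and dehydration genes STZ passed (adjusted p = 3.11e-04, limma). The wild-type signals of STZ were 62.1 and 121, with a log2 mean just under the filter cutoff. It thus entered the test through its mutant signals, but its call held without the filter. Those mutant signals, 1965 and 868, were too far apart for the rule. Of 3 tested xyloglucan endotransglucosylases, which loosen walls, XTH16 passed, at 321 and 138 in the wild type and 529 and 569 in the mutant (adjusted p = 0.0382, limma). Its call held in 5 of 9 alternatives and was lost without the filter (adjusted p = 0.169, limma), without wild-type replicate 2 (0.127), after quantile normalization (0.0605) and after centring on the median (0.0548). EXLA1 was the 1 expansin of 11 tested that passed (adjusted p = 0.0179, limma; 0.131 without the filter), with mutant signals of 1758 and 553. Among 20 tested glucosyltransferases, 1 passed and was higher, UGT71B1 (adjusted p = 0.0471, limma), a call kept by 2 of 9 alternatives, with a range of 0.0402 to 0.157. None of 7 tubulins and none of 7 glutathione transferases passed. Of 13 tested genes taken as cytochromes P450 by a CYP symbol, only CYP71B24 passed, and it was lower (adjusted p = 0.0133, limma). Its call was lost without the filter (adjusted p = 0.0929, limma) and without wild-type replicate 1. CYP59 and CYP71, among the 13, carry such a symbol but are cyclophilins, so the family is not made of cytochromes P450 alone.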

How the data were processed

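RNA from 4 samples was measured on Affymetrix GeneChip arrays, with 10 µg of total RNA each made into biotin-labelled RNA, per the labels' protocols. The deposited values are linear signal intensity per probe set, and the sources used here name no software for them. On all arrays the intensity values had a trimmed mean of 500.05 (2% removed at each end), so the authors had scaled them to a common mean, and a change in total mRNA cannot show. No detection calls were used. The number of arrays limits the precision.

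Values were analysed as log2(signal + 16) after removing 64 control probe sets. The annotation gave 1 gene for 13513 probe sets (13436 matched to the TAIR10.1 table), several for 503 and none for 8730. Close paralogs can share a probe set. Members and lists were chosen with earlier results of these data known, and functional groups after the members' names were seen. Per-array values are given for the 10 members with the largest gap and up to 5 per functional group, and others by range or mean; a few singled out besides were chosen after their values were seen. For non-members, limma 3.58.1 (R 4.3.3) gave the test (intensity trend, genotype only, two-sided, Benjamini-Hochberg over 13648 probe sets, 2 residual degrees of freedom) after leaving out the dimmest 40%. A list gene with several probe sets is represented by the brightest, while members are counted by probe set. Of 169 entries in 11 lists, 29 had a named probe set. The flowering and seed lists and 6 of the symbol families had no tested gene; defence, flavonoid, root, flower, heat shock and WRKY lists had 1 each, none past the threshold. Promoter motifs were not searched. The procedure was tested on simulated data, and recovery depended on how the noise was drawn. Most changes of 1 on the log2 scale were missed, so a gene that did not pass may still differ. Figures used matplotlib 3.10.9.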

Additional observations from a re-analysis of the deposited data

How the results depend on the processing

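No alternative changed the direction of a member's difference, which the choice of groups that do not overlap all but fixes. The median difference of the 66 probe sets was 1.38, and it was 0.89 with an offset of 64. The rule was met by 66 probe sets, but by 23 with an offset of 64, 34 after centring on the median, 54 after quantile normalization (43 of them shared with the 66), 30 with only probe sets above the filter and 4 with a gap of 1.5. With mutant arrays within 0.25 it was 48. With 1 array left out it was met by 201 to 516, since fewer arrays must be separated and, without a mutant array, the steadiness condition falls away. In the limma fit, 763 probe sets were called (374 higher, 389 lower), against 258 (114 higher, 144 lower) without the filter, where more are tested. Leaving out 1 array leaves a genotype with a lone sample, which is assumed to vary like the other genotype's pair, so those calls rest on the spread of 1 genotype. It gave 561 to 1095 calls, 290 to 607 of them higher, the most without wild-type replicate 1; the cause was not tested. Centring on the median gave 257 higher and 572 lower. Of 87 tested list genes that are not members 7 passed, 2 without the filter, and 6 to 11 with 1 array left out (11 without wild-type replicate 1). Without the filter the calls of XTH16, CYP71B24, EXLA1, TOPII and UGT71B1 were lost (adjusted p = 0.0929 for CYP71B24 and 0.131 for EXLA1, limma). The calls of XTH16 and UGT71B1 were lost in further alternatives too, and that of CYP71B24 without wild-type replicate 1. Same-numbered replicates deviated together only weakly (r = 0.093 across probe sets), and nothing in the labels pairs them; with the replicate block 678 probe sets and 6 list genes were called, and the members' median difference was 1.38. The filter on dim probe sets and the number of arrays limit what can be said of the 36 dim members.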
